A study of Mus musculus with 36 samples.

Results

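Sox9 and Cd24a are the genes whose names label several of the epithelial populations sorted in this study, among them Sox9 High, Sox9 Low, Sox9 Negative and CD24Low. Their mRNA was followed cell by cell in the 2 single-cell libraries of the study, set1 and set2, across the 8 cell types of the authors' annotation. They were chosen by name, and are 2 of the 27998 genes listed in each library. Both libraries were prepared on the 10x Genomics Chromium system, which captures single cells in droplets and tags each mRNA molecule with a unique molecular identifier (UMI). The cells came from the small intestine of wild-type mice of strain C57BL6/2J, aged 12 months, with no treatment named. The labels do not say whether set1 and set2 come from separate animals, so the spread between them may be technical. P-values below set a difference only against that spread, in the main test after the shift shared by all types is removed. The sorted populations themselves are not analysed here. Sox9 (ENSMUSG00000000567) lies on chromosome 11 and Cd24a (ENSMUSG00000047139) on chromosome 10, and no other gene of the GENCODE vM21 annotation overlaps either of them.

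Sox9 encodes a transcription factor of the HMG-box family that acts downstream of Wnt signalling in the intestinal crypt, the pit at whose base stem cells and Paneth cells lie. It is known from mice as a factor needed for Paneth cell formation, and the amount of Sox9 has been used to separate stem cells, progenitors and rarer secretory cells. Cd24a encodes CD24, a small and heavily glycosylated protein held on the outer cell surface by a lipid anchor. Antibodies to CD24 are used to sort crypt cells, the brightest cells being enriched for Paneth and other secretory cells.

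The annotation named 1144 of 1209 barcodes in set1 and 1470 of 7711 in set2, 2614 of 8920 in all, and no barcode was shared by the libraries. Annotated cells held a median of 16547 UMIs (8339 to 146185) in set1 and 24850.5 (1116 to 135939) in set2. Paneth cells were the deepest, with medians of 73555 and 67245 UMIs. The named types were tuft cells (24 cells in set1 and 23 in set2), enteroendocrine cells (EEC, 35 and 45), Paneth cells (84 and 74), goblet cells (105 and 250), secretory progenitors (82 and 146), intestinal stem cells (ISC, 78 and 80), progenitors (330 and 364) and enterocytes (406 and 488). Each name was held up against a list of known marker genes. In both libraries 7 of the 8 types had the highest summed level of their own list, and the exception was the secretory progenitor, whose list (Atoh1, Dll1 and others) was highest in goblet cells. The counts of set2 hold barcodes from 500 UMIs up and those of set1 from 8339, so the lowest total kept differs between the libraries.

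Cd24a was highest in tuft cells, the chemosensory cells of the epithelium, in both libraries, and lowest in enterocytes, the absorptive cells. Levels are given as UMIs of the gene per 1000000 UMIs of the summed cells (CPM). In tuft cells Cd24a reached 5577 CPM in set1 and 1816 CPM in set2, a mean of 3697 ± 2660 (SD, n = 2 libraries). The libraries thus differed 3.07-fold in this type, and both values lay above those of every other type. In EEC, the hormone-secreting cells, it stood at 1022 and 572 CPM, a mean of 797 ± 318. In Paneth cells, which secrete antimicrobial peptides, it stood at 382 and 461 CPM (421 ± 55.7). Goblet cells, which secrete mucus, held 314 and 189 CPM (251 ± 88.2), and secretory progenitors 211 and 162 CPM (187 ± 34.5). ISC held 205 and 124 CPM (165 ± 57.6), progenitors 111 and 80.8 CPM (95.8 ± 21.2), and enterocytes 24.7 and 16.8 CPM (20.7 ± 5.64). The order of the 8 types was the same in set1 and set2. The library values of goblet cells and secretory progenitors overlapped, as did those of secretory progenitors and ISC, although within each library the order held (314 above 211 and 189 above 162 CPM, then 211 above 205 and 162 above 124 CPM). The differences between these neighbours were not tested. Tuft cells exceeded enterocytes 225-fold in set1 and 108-fold in set2. By CPM, set1 had the higher Cd24a level in 7 of 8 types, and Paneth cells were the exception.

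Sox9 was also highest in tuft cells and lowest in enterocytes, but at a lower level and with another order between them. Tuft cells held 289 CPM in set1 and 232 CPM in set2, a mean of 261 ± 40.4 (SD, n = 2). ISC came next at 76.2 and 106 CPM (91.2 ± 21.2), followed by secretory progenitors at 71.3 and 68.5 CPM (69.9 ± 2.00). Goblet cells held 39.7 and 46.6 CPM, progenitors 34.0 and 46.3 CPM, EEC 53.3 and 22.2 CPM, and Paneth cells 27.3 and 46.5 CPM. These 4 types overlap in their library values, and their order differs between the libraries, with goblet cells above progenitors in both. Enterocytes held 5.01 and 7.04 CPM (6.03 ± 1.44). The level in tuft cells was 3.79 times that in ISC in set1 and 2.19 times in set2. EEC had the widest relative gap between libraries, 2.40-fold, and rest on 29 and 18 Sox9 UMIs. Cd24a UMIs outnumbered Sox9 UMIs in every type, from 1.17 per Sox9 UMI in ISC of set2 to 25.8 in EEC of set2. The ratio was 19.3 and 7.82 in tuft cells and 2.96 and 2.37 in secretory progenitors.

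**Figure D1:**
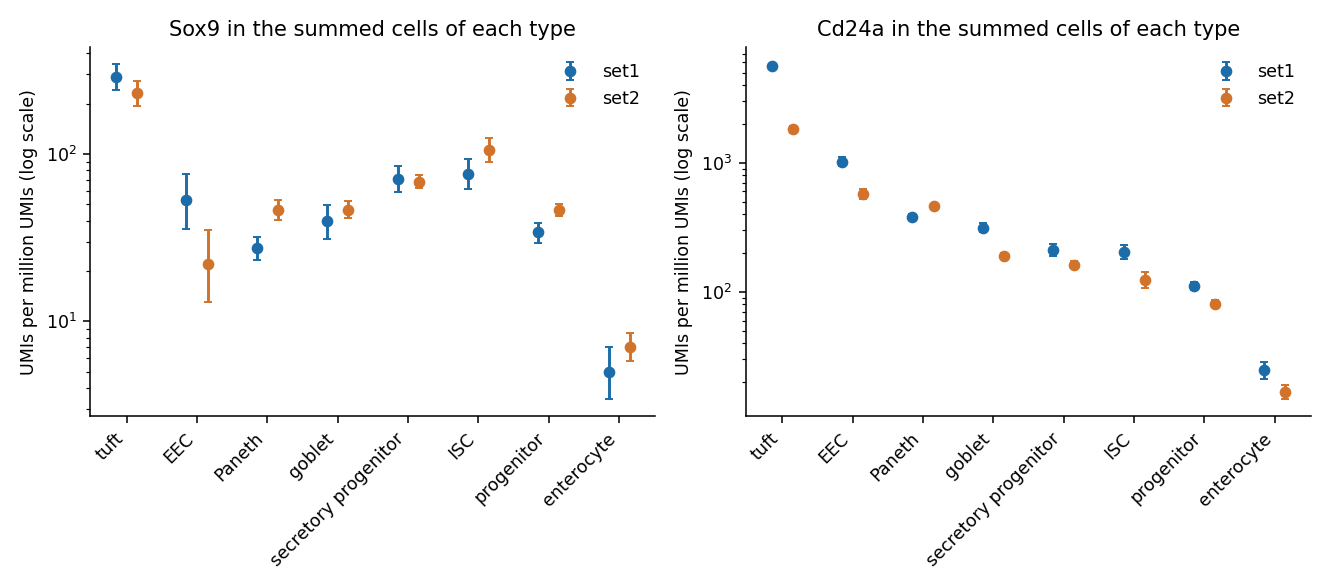
Level of Sox9 (left) and Cd24a (right) in the summed cells of each type, in CPM on a log scale, for set1 (blue) and set2 (orange). Bars are exact 95% Poisson intervals of the UMI count and cover counting error only. Tuft cells are highest for both genes, at 289 and 232 CPM for Sox9 and at 5577 and 1816 CPM for Cd24a.

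The place of Paneth cells in both orders depends on what the UMIs are divided by. Genes of the marker lists, above all the Paneth antimicrobial genes, took up 45.5% of the UMIs of Paneth cells in set1 and 41.8% in set2, against 2.08% and 1.40% in tuft cells. With the marker-list genes left out of the totals, an alternative added after the data were seen, Paneth cells moved from the 7th to the 4th place for Sox9, at 50.1 and 79.8 CPM. With TMM scaling, which sets the bulk of genes equal between the sums, they moved to the 2nd place for both genes, at 137 ± 32.7 CPM for Sox9 and 1688 ± 787 CPM for Cd24a. Tuft cells stayed highest under all 3 scalings, at a mean of 185 to 265 CPM for Sox9 and 2674 to 3769 CPM for Cd24a. The TMM factors of Paneth sums were 0.170 and 0.408. Which library was higher in Paneth cells also depended on the scaling. By CPM it was set2 for both genes. With TMM it was set1, at 160 against 114 CPM for Sox9 and 2245 against 1132 CPM for Cd24a.

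Each type was then tested against the mean of the other 7, with UMIs summed by library and type (16 sums), edgeR's quasi-likelihood test, TMM scaling and the library as a term. The annotation was made on the same cells, so these tests are not independent evidence of a type. They set a difference against the spread between libraries left after the library term, with a shared estimate for all types. The SE given below is the absolute log2 fold change divided by the square root of the test's F value. Fits to 1 library can lie further apart than this SE. For Cd24a in tuft cells they gave 4.08 from set1 and 3.18 from set2. Over the 11610 genes tested, 6.5% were called higher and 4.17% lower in tuft cells, 13.1% and 12.8% in EEC, 12.9% and 12.5% in Paneth cells, and 19.1% and 13% in goblet cells. In secretory progenitors 10.3% were called higher and 4.34% lower, in ISC 13.2% and 11.7%, in progenitors 22.7% and 11.6%, and in enterocytes 31.9% and 28.9%. A call therefore says least in enterocytes and most in tuft cells. Without scaling factors the median gene moved by 0.51 in tuft cells, 0.63 in EEC, -2.14 in Paneth cells, 0.41 in secretory progenitors, 0.23 in ISC and 0.43 in progenitors on the log2 scale, and values from library totals below are to be read against these shifts.

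Cd24a was called higher in 3 of the 8 types. Its log2 fold change against the other types was 3.68 in tuft cells (SE 0.13, adjusted p 1.13e-16), 3.05 in Paneth cells (SE 0.13, adjusted p 2.42e-15) and 1.17 in EEC (SE 0.15, adjusted p 2.49e-06). Under library totals alone the Paneth difference was 0.92, still called and above the median gene. Without the library term the EEC call was lost (adjusted p 0.0649). Cd24a was called lower in enterocytes, with a log2 fold change of -4.12 (SE 0.22), in progenitors at -1.92 (SE 0.19), in ISC at -1.02 (SE 0.18) and in secretory progenitors at -0.86 (SE 0.17). The ISC and secretory progenitor calls were lost without the library term (adjusted p 0.211 and 0.419) and with library totals alone (0.0649 and 0.209). In goblet cells Cd24a was within its error of the mean of the other types (0.01, SE 0.16, adjusted p 0.999).

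Sox9 was called higher in tuft cells, by 2.24 in log2 (SE 0.18, adjusted p 1.6e-09), in Paneth cells by 1.74 (SE 0.17, adjusted p 2.25e-08) and in ISC by 0.83 (SE 0.18, adjusted p 0.00168). The Paneth difference changed sign with library totals alone, to -0.42 (adjusted p 0.107), which is still above the shift of the median gene there. The ISC call was lost without the library term (adjusted p 0.0604). Sox9 was called lower in enterocytes at -3.30 (SE 0.22, adjusted p 3.61e-12), in EEC at -1.15 (SE 0.27, adjusted p 0.00289) and in progenitors at -0.57 (SE 0.17, adjusted p 0.00954). The EEC and progenitor calls were lost with library totals alone (adjusted p 0.326 and 0.411), and the progenitor call also without the library term (0.194). In EEC the fold change was -0.35 from set1 alone and -1.84 from set2 alone. Secretory progenitors (0.27, SE 0.17, adjusted p 0.342) and goblet cells (-0.05, SE 0.18, adjusted p 0.881) did not pass the test, though with library totals alone secretory progenitors were called higher at 0.66 (adjusted p 0.0303).

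**Figure D2:**
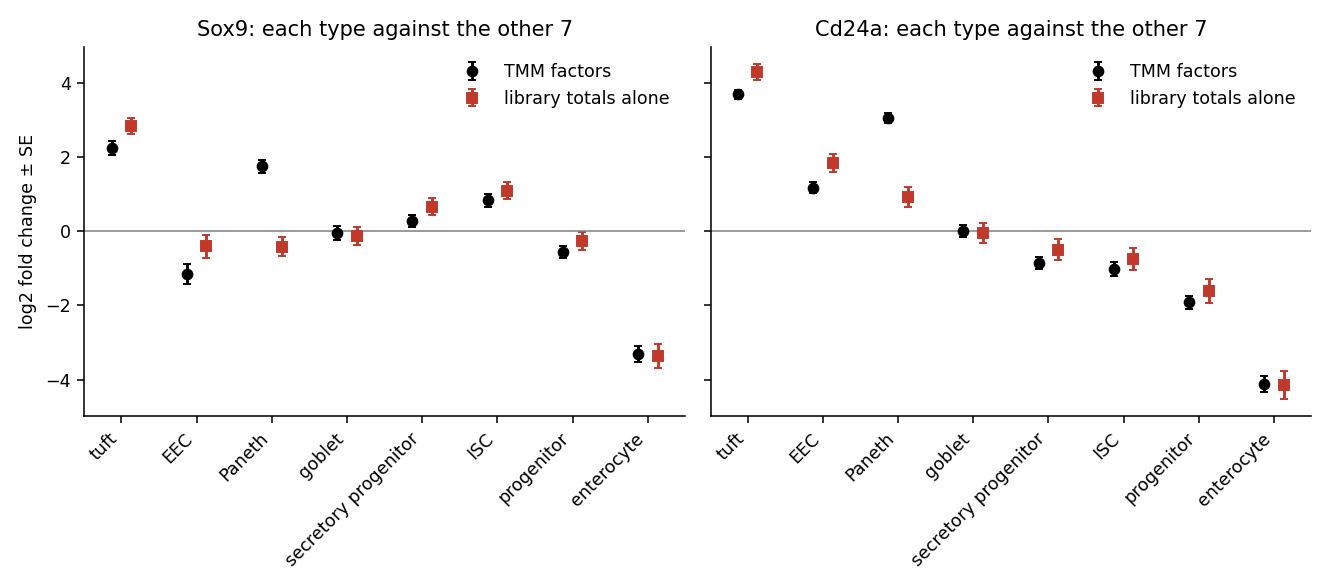
Log2 fold change of Sox9 (left) and Cd24a (right) in each type against the mean of the other 7 types, from edgeR with TMM factors (black) and with library totals alone (red). Bars are the SE derived from the test's F value and do not show the gap between libraries. Paneth cells move most between the scalings, from 1.74 to -0.42 for Sox9 and from 3.05 to 0.92 for Cd24a.

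Per cell, Sox9 was sparse and Cd24a was not. At least 1 Sox9 UMI was found in 388 of 1144 cells in set1 (33.9%) and in 674 of 1470 in set2 (45.9%), and at least 1 Cd24a UMI in 739 (64.6%) and 958 (65.2%). A cell held at most 11 Sox9 UMIs in set1 (an ISC and a tuft cell) and 21 in set2 (a secretory progenitor of 103073 UMIs). The highest Cd24a counts were 313 UMIs in set1 and 105 in set2, both in tuft cells. Counts were concentrated: 49 cells of set1 and 98 of set2 held 50% of the Cd24a UMIs, and 84 and 126 cells held 50% of the Sox9 UMIs. Tuft cells were 2.10% of the annotated cells of set1 and 1.56% of set2, and gave 33.1% and 14.5% of the Cd24a UMIs and 14.8% and 6.94% of the Sox9 UMIs. Paneth cells gave 31.2% and 28.0% of the Cd24a UMIs.

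Every tuft cell had a UMI of both genes, 24 of 24 in set1 (exact 95% interval 85.8% to 100%) and 23 of 23 in set2 (85.2% to 100%). Sox9 ran from 2 UMIs over a median of 4.5 to 11 in set1 and from 1 over 5 to 17 in set2. Cd24a ran from 9 over a median of 78 to 313 UMIs in tuft cells of set1, and from 8 over 45 to 105 in set2. Cd24a reached 10 UMIs in 95.8% and 87.0% of tuft cells, and Sox9 did so in 8.33% and 13.0%.

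Among the other types, the share of cells with a Sox9 UMI followed depth as well as level. It was 77.4% and 68.9% in Paneth cells, 67.1% and 84.9% in secretory progenitors, 50% and 65% in ISC, and 41.9% and 60% in goblet cells. In progenitors it was 35.5% and 50%, in EEC 42.9% and 22.2%, and in enterocytes 7.14% and 16.8%. To compare types at 1 depth, each cell was thinned at random to 11400 UMIs, which left out 128 and 130 shallower cells. Of the EEC, 18 of 35 in set1 and 30 of 45 in set2 were kept. The thinned Paneth share was 21.0% and 37.5%, below that of ISC (45% and 51.6%) and of secretory progenitors (47.4% and 47.9%). Thinning keeps the makeup of a cell, and marker-list genes took up 45.5% and 41.8% of Paneth UMIs. With TMM scaling the mean Sox9 level had the other order, at 137 CPM in Paneth cells, 76.5 in ISC and 55.5 in secretory progenitors. After thinning, the share was 95.2% and 78.9% in tuft cells, 38.1% and 36.3% in goblet cells, 25.9% and 27.7% in progenitors, and 3.59% and 7.08% in enterocytes. Enterocytes are the type with least Sox9. A share at or below theirs cannot be told from background, as RNA free in the droplets was not measured.

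A Cd24a UMI was found in most cells of all types but enterocytes. The share was 100% and 93.3% in EEC, 100% and 95.9% in Paneth cells, 92.7% and 94.5% in secretory progenitors and 88.6% and 85.2% in goblet cells. In ISC it was 91.0% and 81.3%, above goblet cells in set1 and below them in set2, and in progenitors 78.2% and 73.9%. Enterocytes held 24.1% and 28.1%, and 18.8% and 14.2% after thinning. At the thinned depth Paneth cells kept 100% and 98.4%, EEC 100% and 90%, goblet cells 82.5% and 71.8% and ISC 81.7% and 72.6%. A Cd24a UMI alone therefore does not separate ISC from goblet cells or secretory progenitors in these libraries. At least 10 Cd24a UMIs were found in 84.5% and 77.0% of Paneth cells, 57.1% and 51.1% of EEC, 19.0% and 14.8% of goblet cells and 7.32% and 25.3% of secretory progenitors. In ISC the share was 3.85% and 1.25%, in progenitors 0.606% and 4.67%, and in enterocytes 0.246% and 0.410%. Depth moves with these shares: the median Paneth cell held 73555 and 67245 UMIs, against 15149.5 and 16514 in ISC. After thinning, at least 8 Cd24a UMIs in set1 and 7 in set2, the counts that mark the top 5% there, were found in 8.64% and 26.6% of Paneth cells, 16.5% and 8.97% of goblet cells, 33.3% and 46.7% of EEC, and 90.5% and 89.5% of tuft cells. The thinned EEC are 18 of 35 and 30 of 45 cells. Over all EEC the Cd24a CPM fell with depth (Spearman rho -0.663 and -0.221), so the shallow EEC left out tended to hold more of it. As for Sox9, the thinned totals of Paneth cells include the marker-list genes.

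**Figure D3:**
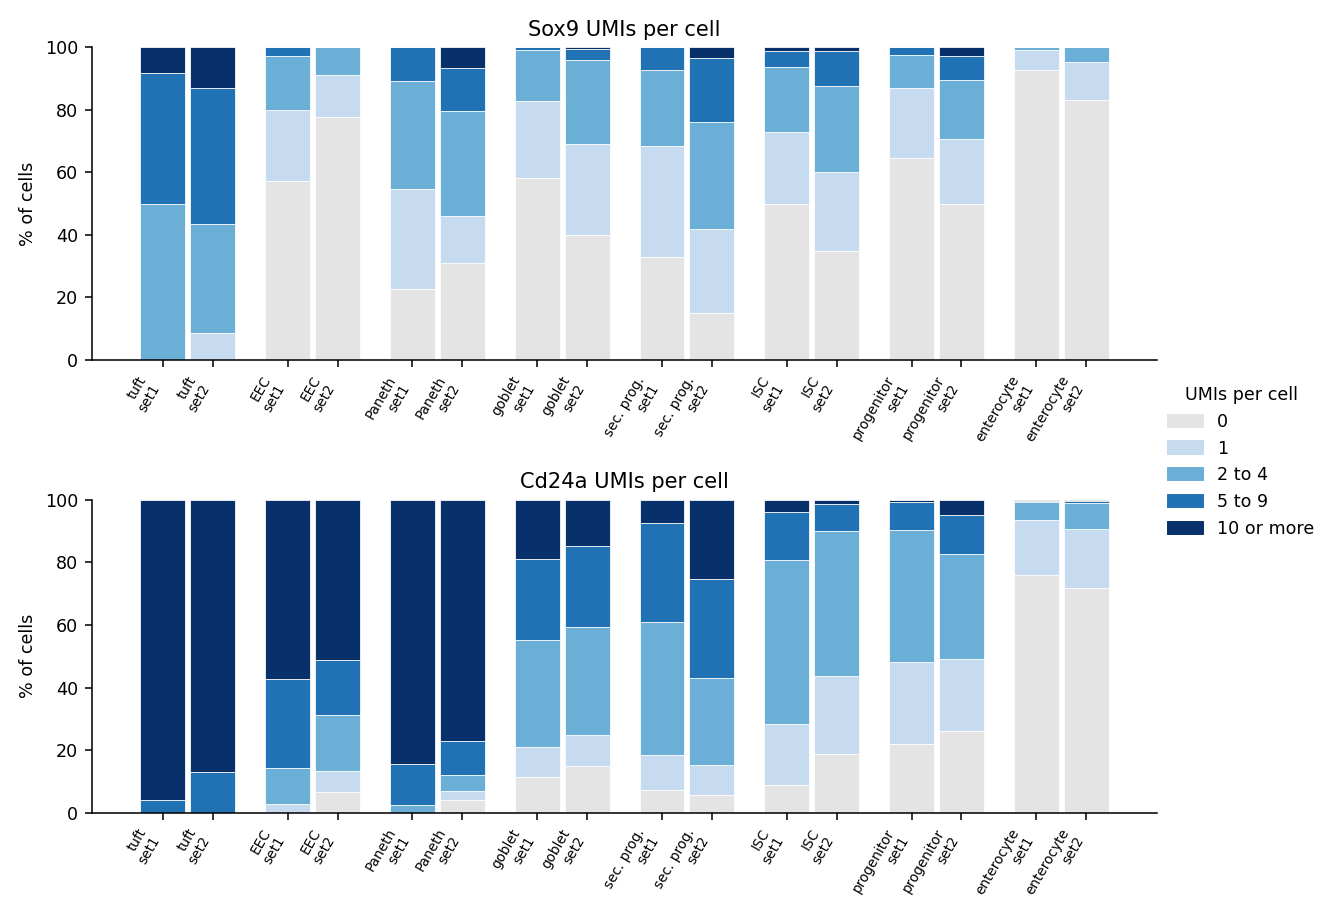
Share of the cells of each type and library with 0, 1, 2 to 4, 5 to 9 and 10 or more UMIs of Sox9 (top) and Cd24a (bottom), as deposited. For Sox9 only tuft cells have no cell at 0 in either library, and for Cd24a tuft cells, with Paneth cells and EEC, have the highest shares of cells with 10 or more UMIs.

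Both genes were detected in 343 of 1144 cells of set1 (30.0%) and in 583 of 1470 of set2 (39.7%). Cells with Sox9 alone were few, 45 and 91, while Cd24a alone was found in 396 and 375 cells and neither gene in 360 and 421. In tuft, EEC and Paneth cells no cell of either library had Sox9 without Cd24a. In secretory progenitors 62.2% and 81.5% of cells had both, in ISC 48.7% and 58.8%, in goblet cells 38.1% and 53.6%, in progenitors 30.0% and 43.1%, and in enterocytes 2.71% and 8.61%. Progenitors made up 28.9% and 26.9% of the cells with both genes, and tuft cells gave 24 and 23 of them. Where at least 5 UMIs of each were asked for, 30 cells of set1 and 88 of set2 remained. In set1 they included 12 tuft and 9 Paneth cells, and in set2 31 secretory progenitors, 22 progenitors, 15 Paneth and 13 tuft cells. No EEC or enterocyte was among them in either library.

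Over all cells the odds of a Cd24a UMI were 6.93 times higher in cells with a Sox9 UMI in set1 and 7.19 times in set2. Within library and type the pooled (Mantel-Haenszel) odds ratio was 2.87, being 1.93 in set1 and 3.55 in set2, so much of the joint detection lies between types. Cells with both genes numbered 926, against 854 expected from the shares within each library and type. A ratio could be computed in 10 of the 16 combinations of library and type, and was above 1 in all 10. After thinning, the pooled odds ratio was 1.62 (1.39 in set1 and 1.76 in set2), and 10 of the 12 ratios that could be computed were above 1, the 2 below it being EEC and Paneth cells of set2. Depth is shared by both genes of a cell and moved with joint detection. In ISC the ratio was 6.91 and 5.22 as deposited and 4.69 and 5.35 after thinning, the highest of the ratios that could be computed in each of these 2 views, though the 6.91 rests on 1 ISC with Sox9 alone. With at least 2 UMIs of each gene asked for, ISC stood at 3.00 and 1.91, below enterocytes at 7.56 and 9.45. The 7.56 rests on 1 enterocyte with both genes. In set2 ISC were also below progenitors, secretory progenitors and goblet cells. In set1 ISC were above goblet cells (1.40) and progenitors (1.34). These are descriptions over cells of 2 libraries and carry no p-value.

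**Figure D4:**
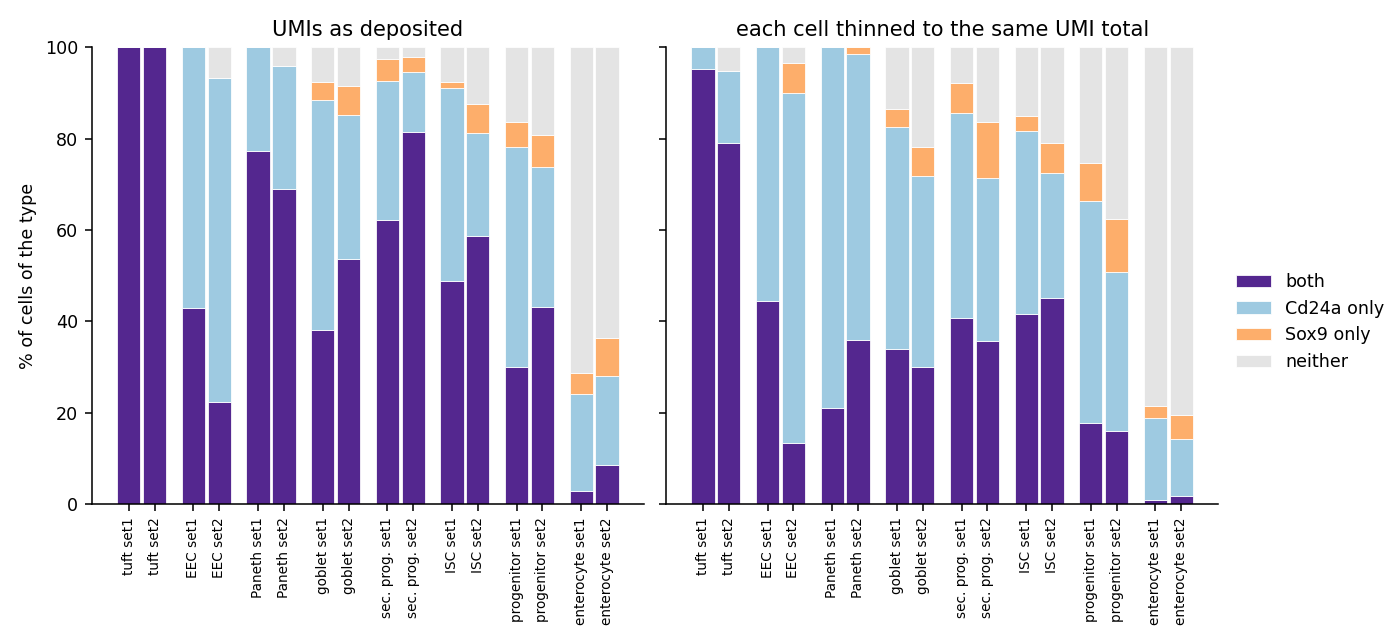
Share of the cells of each type and library with at least 1 UMI of both genes, of Cd24a only, of Sox9 only and of neither, as deposited (left) and with each cell thinned to 11400 UMIs (right). Cells with Sox9 only stay at or below 8.20% of a type as deposited, and the share with both in Paneth cells drops from 77.4% and 68.9% to 21.0% and 35.9% after thinning.

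Among the cells of 1 type, the CPM of the 2 genes moved together most in tuft cells, with a Spearman rho of 0.670 over 24 cells of set1 and 0.543 over 23 cells of set2. ISC stood at 0.376 over 78 cells and 0.246 over 80 cells, and secretory progenitors differed between libraries, at 0.0109 over 82 cells and 0.430 over 146 cells. In EEC the sign was negative, at -0.221 over 35 and -0.132 over 45 cells. The 2 values of a cell share its library and its UMI total, and in tuft cells both fell with that total: rho with depth was -0.589 and -0.509 for Sox9 and -0.720 and -0.412 for Cd24a. The part of depth in these relations was not tested.

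The cells with the highest Sox9 came from 6 of the 8 types in set1 and 7 in set2. They were taken as the top 5% of annotated cells of a library by CPM with at least 2 UMIs, which gave 58 cells of at least 194 CPM in set1 and 74 of at least 193 CPM in set2. Tuft cells made up 29.3% of them in set1 (exact 95% interval 18.1% to 42.7%) and 18.9% in set2. ISC made up 17.2% and 24.3%, progenitors 24.1% and 17.6%, goblet cells 10.3% and 21.6% and secretory progenitors 13.8% and 13.5%. EEC made up 5.17% and 1.35% and Paneth cells 0% and 2.70%, and no enterocyte was among them. Within the types, 70.8% and 60.9% of tuft cells were in the top group. A group cut at the highest Sox9 mRNA therefore held tuft cells 14.0 times above their share in set1, with most of its cells from other types.

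The highest Cd24a cells were mostly tuft cells and EEC. At cuts of 789 and 678 CPM, tuft cells made up 37.9% and 27.0%, EEC 34.5% and 29.7% and goblet cells 17.2% and 25.7%. Paneth cells made up 1.72% and 12.2%, and no ISC was among these cells in either library. Of all tuft cells 91.7% and 87.0% were in the top group, and of all EEC 57.1% and 48.9%. The tops of the 2 genes shared 22 of 58 cells in set1 (37.9% of each) and 24 of 74 in set2 (32.4% of each), of which 17 and 14 were tuft cells.

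How cells are ranked changes this makeup. CPM and thinned counts both rest on totals that include the marker-list genes, which took up a large part of Paneth UMIs. By UMIs per cell rather than CPM, Paneth cells made up 56.9% and 56.0% of the top Cd24a cells and tuft cells 34.5% and 22.7%. The top Sox9 cells by UMIs were secretory progenitors (18.3% and 31.9%), progenitors (16.7% and 29.7%), Paneth cells (21.7% and 13.2%) and tuft cells (26.7% and 12.1%). With each cell thinned to 11400 UMIs, goblet cells made up 30.2% and 27.6% of the top Cd24a cells, tuft cells 35.8% and 22.4% and Paneth cells 13.2% and 22.4%. The thinned Sox9 ranking cannot cut finely, because cells of 2 UMIs tie: it kept 82 and 134 cells, of which progenitors made up 34.1% and 26.1% and tuft cells 15.9% and 9.70%. Median depth was 60157 and 69742 UMIs in the top Cd24a cells by UMIs and 12743 and 15125 in those by CPM, so the first ranking took deep cells and the second shallow ones.

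**Figure D5:**
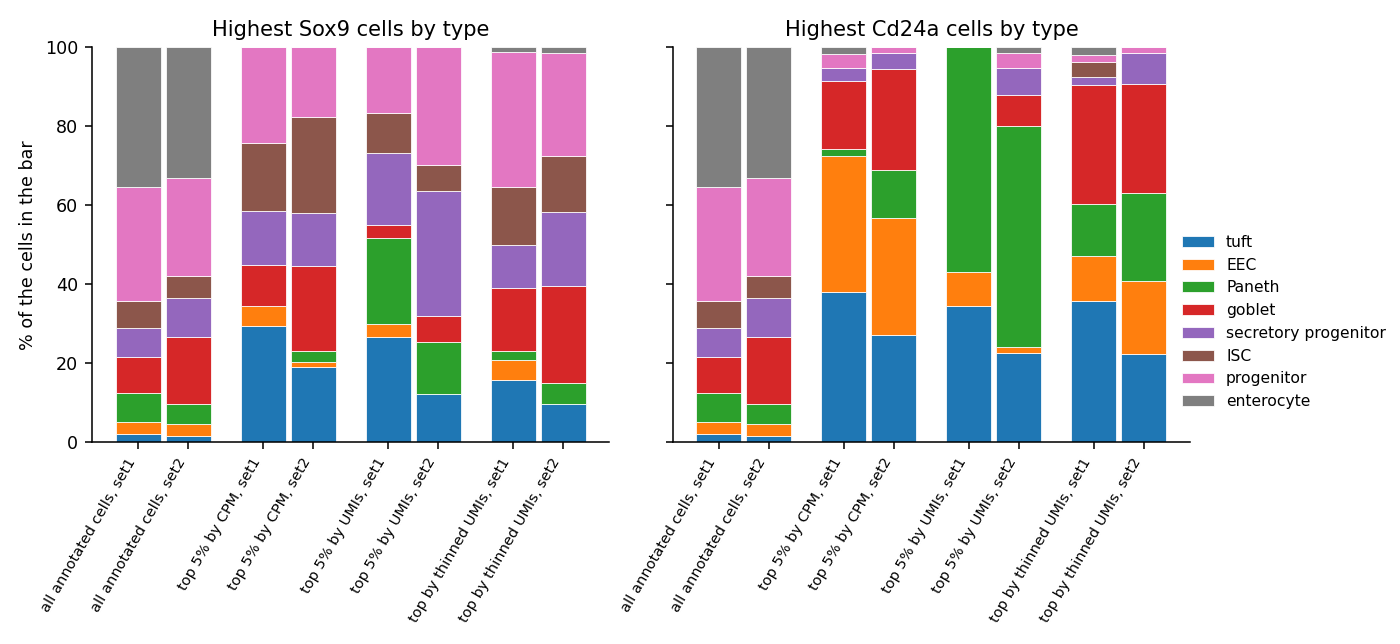
Makeup by cell type of all annotated cells and of the highest cells of Sox9 (left) and Cd24a (right), ranked by CPM, by UMIs and by UMIs after thinning, in set1 and set2. Tuft cells take part in every top group, and Paneth cells fill 56.9% and 56.0% of the top Cd24a cells only where UMIs are ranked.

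Cells in a top group differed from other cells of their type in more than the ranked gene. Tuft cells of the Sox9 top carried the tuft marker list (Dclk1, Trpm5 and others) at 7361 CPM in set1 and 5918 CPM in set2, against 2447 and 1574 CPM in the remaining tuft cells. The goblet list stood at 8879 and 6899 CPM in the top tuft cells, against 1376 and 5866. The remaining tuft cells had more of the enterocyte list (8268 and 1501 CPM, against 1681 and 626), of the cycling list (688 and 1681 CPM, against 314 and 182) and of the leukocyte list (1138 and 991 CPM, against 477 and 389), and were deeper (median 22450 and 33165 UMIs, against 13509 and 14883). Progenitors of the Sox9 top, 14 and 13 cells, held the ISC list (Lgr5, Olfm4 and others) at 1072 and 1702 CPM, against 253 and 309 CPM in other progenitors. They also held more of the Paneth list, at 5585 and 5929 CPM against 2988 and 911, and in set2 of the goblet list, at 5362 CPM against 1803, and less of the enterocyte list, at 887 and 710 CPM against 2906 and 1555. Top ISC held the ISC list at 933 and 1657 CPM, against 539 and 1008. EEC of the Cd24a top held the secretory progenitor list (Neurog3 and others) at 828 and 640 CPM, against 231 and 173 in other EEC. Their ISC list stood at 126 and 108 CPM, against 407 and 269, and their cycling list at 549 and 171 CPM, against 972 and 985. The enteroendocrine list stood at 41487 and 48601 CPM in these top EEC, against 15441 and 46282. Their median depth was 10005 and 11836.5 UMIs, against 21765 and 13439. Goblet cells of the Cd24a top, 10 and 19 cells, held the Paneth list at 34349 and 20499 CPM, against 10528 and 9299. Whether cells of mixed content take part in these differences was not tested.

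The following single cells were picked after their values were seen, as highest of their type in Cd24a UMIs or CPM. The enterocyte with most Cd24a in set1 had 22 UMIs, against at most 7 in any other enterocyte there, and held 33 UMIs of the enteroendocrine list. By CPM it was also highest, at 965 against at most 306. That of set2 had 34 Cd24a UMIs, against at most 12, and held 57 UMIs of the tuft list, but it was a cell of 80917 UMIs and by CPM stood at 420 against 372 for the next. The ISC with most Cd24a in set1, at 21 UMIs against at most 12 in any other, held 3559 UMIs of the Paneth list. It was the deepest ISC there, with 31373 UMIs, and at 669 CPM it lay below another ISC at 717 CPM. A Paneth cell of set1 stood at 8485 CPM of Cd24a, with 90 UMIs, while no other Paneth cell there passed 763 CPM. It had 0 UMIs of the tuft list and of the enteroendocrine list. The cell was shallow, with 10607 UMIs against a median of 73555 in Paneth cells of set1. By Cd24a UMIs another Paneth cell there stood higher, at 97.

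Of the Sox family, 19 numbered genes are in the files and 5 had counts enough to be tested (Sox4, Sox6, Sox9, Sox12 and Sox13). Sox4, a related factor known from mouse intestine for its part in tuft and enteroendocrine cell formation, was called higher in tuft cells by 2.02 in log2, in EEC by 2.55 and in ISC by 1.46, and lower in goblet cells at -2.26 and in enterocytes at -4.40. It thus parted from Sox9 in EEC. In tuft cells 2 of the 5 were called higher and none lower, with a median log2 fold change of 0.58 against -0.06 over all genes tested. In enterocytes 2 were higher and 3 lower (median -3.30 against -0.04), and without the library term 1 was higher and 3 lower. Over all genes tested 6.5% were called higher in tuft cells, and 31.9% higher and 28.9% lower in enterocytes.

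Of 12 Wnt target genes of the crypt, 10 were called higher in ISC (median 2.00, against -0.04 over all genes), among them the stem cell receptor Lgr5 (3.74) and the transcription factor Ascl2 (2.70). Paneth cells also had 10 of 12 called higher (median 2.13). With library totals alone 4 were higher and 5 lower there (median 0.04). Of all 11610 genes, 215 were then higher and 9892 lower in Paneth cells (median -2.14). Progenitors had 7 of 12 called higher, 2 without the library term and 9 with library totals alone. Tuft cells had 3 of 12 called higher, Ascl2, Lgr5 and Nkd1 (5 with library totals alone), and enterocytes 1 higher and 9 lower. Over all genes tested 13.2% were called higher in ISC, 12.9% in Paneth cells, 22.7% in progenitors and 6.5% in tuft cells. In enterocytes 31.9% were called higher and 28.9% lower. Without the library term 842 of the 11610 genes were called higher in progenitors. With library totals alone 3719 were called higher in progenitors and 2064 in tuft cells. Of 10 genes of Notch signalling and secretory fate, 5 were called higher and none lower in secretory progenitors, among them the secretory master regulator Atoh1 (2.86) and the goblet and Paneth factor Spdef (2.83). Goblet cells had 5 higher and 2 lower, and in both these types Sox9 did not pass the test. Over all genes tested 10.3% were called higher in secretory progenitors, and 19.1% higher and 13% lower in goblet cells.

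Of 12 surface proteins used to sort crypt cells, Cd24a included, 9 were called higher and 1 lower in Paneth cells (2 higher and 5 lower with library totals alone), 4 and 1 in tuft cells (6 and 0 with library totals alone), 3 and 1 in EEC (5 and 0), and 3 higher and 7 lower in enterocytes (2 and 7). Without the library term these counts were 7 and 0 in Paneth cells, 4 and 1 in tuft cells, 1 and 0 in EEC and 1 and 7 in enterocytes. Over all 11610 genes, in the same order, they were 950 and 558, 511 and 138, 1084 and 568, and 2698 and 2194. With library totals alone the counts over all genes were 215 and 9892 in Paneth cells and 2064 and 65 in tuft cells. They were 3669 and 118 in EEC and 2839 and 2629 in enterocytes. In Paneth cells the 12 then had a median of -0.59, against -2.14 over all genes. Over all genes tested 12.9% were called higher and 12.5% lower in Paneth cells, and 6.5% and 4.17% in tuft cells. In EEC the shares were 13.1% and 12.8%, and in enterocytes 31.9% and 28.9%. The 3 of 12 called higher in enterocytes lie below the 31.9%. ISC, progenitors and secretory progenitors each had 4 of the 12 called higher and 3 lower. For all genes the shares were 13.2% and 11.7% in ISC, 22.7% and 11.6% in progenitors and 10.3% and 4.34% in secretory progenitors. Without the library term ISC had 3 and 1 (611 and 526 over all genes), progenitors 0 and 3 (842 and 458) and secretory progenitors 1 and 0 (404 and 31). Kit, a receptor tyrosine kinase, was called higher in tuft cells (2.36), Paneth cells (2.63), EEC (0.88), goblet cells (1.84) and secretory progenitors (1.41), and lower in ISC (-2.25), progenitors (-2.42) and enterocytes (-4.44). Its calls shared their direction with those of Cd24a in all types but goblet cells, where Cd24a was not called, and secretory progenitors, where Cd24a was lower. Cd44, an adhesion receptor and Wnt target, was called higher in EEC (2.48) and Paneth cells (1.88) and lower in enterocytes (-4.61), as Cd24a was. It was called higher in ISC (1.32) and progenitors (0.60), where Cd24a was lower, and lower in goblet cells (-2.71), where Cd24a was not called. Epcam, the general epithelial surface protein, differed by 0.72 or less in log2 in every type. Of 6 genes for binding partners or signalling partners of CD24, 3 could be tested. In tuft cells the adhesion molecule L1cam (1.20) and the kinase Lyn (0.91) were called higher, and neither call held without the library term. Of the 3, 2 were also called higher in secretory progenitors and in progenitors, where Cd24a was lower (0 and 1 without the library term). None was called higher in Paneth cells or EEC, where Cd24a was higher. ISC and enterocytes each had 1 higher and 1 lower. The shares over all genes are those given above.

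By the pattern over the 16 sums, the genes most like Sox9 among 10107 compared were Gm684, Pla2g4a, Zfhx3, Cited4, Cklf, Nrtn, Cdc42ep1 and Rbm38, with Pearson correlations of log2 CPM of 0.86 to 0.88. Pla2g4a, which encodes a phospholipase that releases arachidonic acid, had a mean of 104 CPM in tuft cells and 29.4 CPM in ISC. Those most like Cd24a were Camkk2, Tmem9, Phlda1, Slc27a1, Stra6l, Iqsec1, Reep5 and Limd2, at 0.84 to 0.90. Cd24a itself ranked 65th for Sox9 and Sox9 56th for Cd24a (both 0.75). The sums of 1 library share its depth and preparation, and the correlations are descriptions.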

How the data were processed

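UMI counts per gene and barcode were deposited by the authors for both libraries, with a table of cell type names for part of the barcodes. The labels' protocols name 10x Genomics Chromium libraries, and the submitters' processing notes name genome build mm9. The aligner, the counter, the strand setting, the way cells were named and any removal of doublets have no statement in the labels or headers, and no doublet caller was run. The miRNA table of the sorted populations was not used.

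CPM is the sum of a gene's UMIs per 1000000 UMIs of the cells. Intervals are exact (Poisson or Clopper-Pearson, 95%) and cover counting error only. Thinning used 11400 UMIs, the 10th percentile of annotated totals rounded down to a multiple of 100, with seed 1. Sums per library and type (at least 20 cells each) were tested with edgeR 4.0.16 (R 4.3.3), filterByExpr, TMM, the library as a term and Benjamini-Hochberg adjustment, with calls at adjusted p under 0.05 and 7 residual degrees of freedom. Types of 1 library come from the same cell suspension, and their deviations between libraries correlated at 0.401 to 0.807 across 6832 genes in all 28 pairs of types, so library was kept as the replicate block. On simulated counts for the tuft comparison (10505 genes), 62 of 100 genes changed 2-fold and 94 of 100 changed 4-fold were found, with 7 of 10305 unchanged genes called. These counts were drawn independently from 1 mean profile for all types, with no other type differences and no shift between libraries. The share of false calls in the real comparison cannot be read from them. DESeq2 1.42.0 was an alternative. Pattern likeness used log2(CPM + 10) of genes with at least 50 UMIs in each library. Named genes are Sox9, Cd24a, members of the lists, and the 8 most alike for each. The members and lists were chosen with earlier results of these data known.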

Additional observations from a re-analysis of the deposited data

Results flagged for a closer look

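Both genes also appeared in barcodes to which the annotation gives no type, above the level that a count of 0 would allow. In the 65 such barcodes of set1, Sox9 had 8 UMIs (9.85 CPM) and Cd24a 119 UMIs (146 CPM). In the 6241 of set2, Sox9 had 331 UMIs (14.8 CPM) and Cd24a 1001 UMIs (44.6 CPM). The medians of these barcodes were 11041 and 1738 UMIs. Of the barcodes of set2 without a type, 167 had a UMI of the B cell gene Cd79a, and these held 101 Cd24a UMIs (204 CPM, 40.1% of barcodes with a UMI) and 0 Sox9 UMIs, which at a floor of 3 counts allows up to 6.06 CPM. The 11 such barcodes of set1 held 58 Cd24a UMIs (406 CPM) and 2 Sox9 UMIs. The 18 barcodes of set1 with a UMI of the leukocyte gene Ptprc stood at 287 CPM of Cd24a and 8.58 CPM of Sox9 (2 UMIs). The 1570 barcodes of set2 with one stood at 33.1 CPM of Cd24a (171 UMIs) and 4.65 CPM of Sox9 (24 UMIs). Barcodes with a UMI of Epcam and none of Ptprc numbered 40 in set1 and 1983 in set2. They held 6 and 292 Sox9 UMIs (11.6 and 21.5 CPM) and 42 and 693 Cd24a UMIs (81.5 and 50.9 CPM). In set2 these were most of the UMIs of both genes in barcodes without a type, and in set1 most for Sox9 but not for Cd24a.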

How the results depend on the processing

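Without the replicate block (the library term), calls numbered 649 in tuft cells, 1652 in EEC, 1508 in Paneth cells, 1779 in goblet cells, 435 in secretory progenitors, 1137 in ISC and 1300 in progenitors, against 1239, 3008, 2942, 3725, 1698, 2890 and 3986 with it. The paired fit removes the shift between libraries. The log2 values whose calls were lost without the replicate block were 0.81 for Sox9 in ISC, -0.59 for Sox9 in progenitors, and 1.20, -0.94 and -1.02 for Cd24a in EEC, secretory progenitors and ISC. Cd24a in goblet cells, not called under any setting, turned to -0.00200.

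With library totals alone, calls numbered 2129 in tuft cells (2064 higher and 65 lower, against 755 and 484), 10107 in Paneth cells (215 and 9892, against 1494 and 1448) and 2281 in goblet cells. Higher against lower calls were 3669 and 118 in EEC (1518 and 1490 with TMM), 2274 and 74 in secretory progenitors (1194 and 504), 1745 and 437 in ISC (1535 and 1355), and 3719 and 493 in progenitors (2638 and 1348). Sox9 was at -0.42 in Paneth cells, -0.41 in EEC, -0.26 in progenitors and 0.66 in secretory progenitors. Cd24a was at -0.50 in secretory progenitors, -0.75 in ISC and -0.053 in goblet cells. With DESeq2 size factors, higher against lower calls were 1792 and 1815 in progenitors (2638 and 1348 with TMM), 1735 and 1129 in EEC, 1687 and 1158 in Paneth cells and 1007 and 667 in secretory progenitors, and no call of Sox9 or Cd24a changed there, in DESeq2's Wald test or without the filter on low counts.

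With 1 library left out, log2 values ranged, with no test, for Sox9 from -1.84 to -0.35 in EEC, from 1.68 to 2.02 in Paneth cells, from 0.52 to 1.10 in ISC, from -0.95 to -0.40 in progenitors and from -3.68 to -3.08 in enterocytes. For Cd24a they ranged from 3.18 to 4.08 in tuft cells, from 1.16 to 1.33 in EEC, from 3.11 to 3.19 in Paneth cells, from -1.12 to -0.66 in secretory progenitors and from -2.19 to -1.84 in progenitors.

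The mean Sox9 level of tuft cells was 326 CPM as the mean of single cells and 185 CPM with TMM, against 261. Thinning put 87.1% and 97.4% of tuft cells at a UMI of Sox9 and Cd24a, and 16.5% of enterocytes at one of Cd24a. At least 2 UMIs were found in 95.7% of tuft cells and 2.73% of enterocytes for Sox9 and in 7.81% of enterocytes for Cd24a. The pooled odds ratio was 1.62 after thinning. Tuft cells made up 40.1%, 14.8% and 12.8% of the highest Sox9 cells in the top 2%, in the top 10% and after thinning, and 65.3% and 17.1% of the highest Cd24a cells in the top 2% and the top 10%. Leaving out the 53 cells above the 98th percentile of UMI totals changed no call of the 2 genes. The cause of these changes was not tested. Depth limits calls per cell for both genes: 18.2% and 19.4% of cells held exactly 1 UMI of Sox9 and 17.0% and 16.3% exactly 1 of Cd24a.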
